A study of Mus musculus with 12 samples.

Results

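Resting splenic B cells of transgenic and wild type mice were compared before culture, across every probe set of the array that is not a control. The comparison took 6 of the series' 12 arrays, 3 of BCells_WildType_day0 and 3 of BCells_Transgenic_day0, and 45037 probe sets. The transgenic mice carry EFLmDREAM and the wild type mice carry no transgene that the labels name. The sources used here give neither age nor strain of the mice, nor the promoter of the transgene. All 6 samples were untreated B cells prepared from spleen by depleting CD43-positive cells with microbeads, with a purity stated to exceed 98%. The other 6 arrays, 3 per genotype, came from B cells kept 2 days with LPS and interleukin 4, and are used below as a second measure of the same genotypes and, in the model, for the estimate of the spread.

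DREAM, encoded by Kcnip3, is a calcium sensor of the KChIP family. In the nucleus it binds DNA at short downstream regulatory elements and represses transcription, and it leaves DNA when calcium rises. Resting B cells of the spleen are mostly follicular cells, with smaller marginal zone and B-1 populations and few antibody-secreting plasma cells. A probe set is a group of short probes against one stretch of a transcript. The array reads 9010 of the 18193 measured genes with 2 or more probe sets, so a gene can be read more than once on the same array. Probe sets of a gene can target different exons, 3′ ends or splice forms.

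Values are log2 probe set levels, and a difference is the transgenic mean minus the wild type mean ± SE, with n = 3 arrays per genotype. A probe set was called where the limma p-value, adjusted by Benjamini-Hochberg over all probe sets, was under 0.05. Array medians lay between 5.97 and 6.05. The Pearson correlation across probe sets was 0.984 to 0.996 between arrays of one genotype and 0.973 to 0.988 between genotypes. Wild type replicate 1 stood apart in its control probe sets: the 5′ minus 3′ difference was -2.22 for actin, against -0.67 to -0.54 in the other 5 arrays, and -1.78 for Gapdh, against -0.38 to 0.02. The Y-linked Eif2s3y read 3.74 and 3.78 in replicate 3 of the 2 genotypes and 8.66 to 9.55 in the other 4 arrays, so each genotype held the same mix of this marker. The labels number the replicates without saying whether they came from separate animals, so p-values measure only the spread between these samples, which may be technical.

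Kcnip3 itself was not called at either of its 2 probe sets. At the brighter one the wild type arrays read 6.75, 6.71 and 7.19 and transgenic replicates 2 and 3 read 7.07 and 7.28, with replicate 1 lower than both and a transgenic mean of 7.12, a difference of 0.23 ± 0.12 (adjusted p = 0.279). The dimmer one read 5.24, 5.47 and 5.68 against 5.47, 5.57 and 5.65, a difference of 0.10 ± 0.10. The groups overlapped at both. Without wild type replicate 3 the brighter probe set was called, at 0.39 (adjusted p = 0.025). The files do not say if the transgene is seen by these probes, so the values do not check the labels. The other 3 KChIP genes were also not called at their brightest probe sets, with differences of -0.13 for Kcnip1, 0.09 for Kcnip2 and -0.08 for Kcnip4. A dimmer probe set of Kcnip2 was called, at 5.08, 5.00 and 4.88 in wild type and 4.62, 4.77 and 4.56 in transgenic arrays, a difference of -0.34 ± 0.08 (adjusted p = 0.0216), while the other 2 Kcnip2 probe sets were not.

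Between the genotypes 4256 probe sets were called, which is 9.45% of those tested, 2013 higher and 2243 lower in transgenic cells. The leading direction rested on single arrays. Without wild type replicate 1 the split was 1593 higher and 1372 lower, and without transgenic replicate 3 it was 1153 and 1021. Without wild type replicate 2 or transgenic replicate 1, 50.5% and 50.2% of calls were higher. Falls still led without wild type replicate 3 (3553 and 3965) or transgenic replicate 2 (1413 and 1632). Subtracting each array's median, which moves the median difference of all probe sets from 0.0067 to -0.037, gave 4269 calls with 1550 higher and 2719 lower, so 36.3% of calls were higher in place of 47.3%. Most differences were small, with a median size of 0.523 among called probe sets and a smallest called size of 0.23. At least 2-fold differences were found at 518 called probe sets, 339 higher and 179 lower. The values of the 2 genotypes did not overlap at 10944 probe sets (24.3%). A fit to the 6 unstimulated arrays alone called 1908 (4.24%). The count rested on single arrays: it was 7518 without wild type replicate 3, 2611 without transgenic replicate 1 and 2174 without transgenic replicate 3. Represented by its brightest probe set, a gene was called higher in 986 of 18193 cases (5.42%) and lower in 900 (4.95%).

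Of the 18193 genes, 9010 had 2 or more probe sets. All probe sets were called in one direction in 155 of them (1.72%), 101 higher and 54 lower. In 268 genes several but not all probe sets were called in one direction, and in 1576 genes exactly 1 probe set was called. Probe sets of 63 genes were called in both directions, and 6948 genes had no called probe set. These counts also moved: in the 6 unstimulated arrays alone exactly 1 probe set was called in 687 genes and both directions in 12, and without 1 array the counts ran from 815 to 2509 and from 19 to 228, each from transgenic replicate 3 to wild type replicate 3. A probe set that was not called is not shown to be unchanged. The difference between probe sets was therefore tested itself, as each probe set minus the mean of the gene's others on the same array: it passed in 943 of the 9010 genes (10.5%), among them 571 of the 1576 genes with 1 called probe set and 29 of the 155 with all called. Leaving out 1 array moved the 155 between 82 and 235 and the 943 between 344 and 1983; both extremes came from transgenic replicate 3 and wild type replicate 3. The arrays positive for Eif2s3y alone gave 90 and 361. The 9183 genes with 1 probe set, where no such check exists, were called in 739 cases (8.05%), 470 higher and 269 lower.

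Among genes whose probe sets all rose, Slc40a1, Ctse and C1qb had the largest medians over probe sets. Ctse, with overlapping arrays at one probe set, is given with the bright genes. Slc40a1 encodes ferroportin, the exporter that releases iron from cells. At its brighter probe set the wild type arrays read 6.18, 5.84 and 5.42 and the transgenic arrays 8.73, 8.50 and 8.94, a difference of 2.91 ± 0.16. The second Slc40a1 probe set rose by 2.74 ± 0.15. C1qb, a chain of the complement component C1q, read 5.19, 5.23 and 5.39 in wild type and 7.59, 7.70 and 7.99 in transgenic arrays at the probe set with its largest change, a difference of 2.49 ± 0.11. The other 2 C1qb probe sets rose by 2.24 and 1.29. In both genes each transgenic array lay above each wild type array at every probe set.

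Spic, the Ets transcription factor needed for red pulp macrophages, rose by 1.91 ± 0.13 and 1.33 ± 0.12 at its 2 probe sets, with transgenic arrays at 6.30 to 6.46 and wild type arrays at 4.20 to 4.82 at the first. Fgl2, a secreted fibrinogen-like protein, rose by 2.30 and 1.58. Adgre4, an adhesion receptor of macrophages related to F4/80, rose by 1.72 and 1.58, and the chemokine Ccl6 by 1.67 and 1.52. Clec4n, the C-type lectin receptor dectin-2, rose by 1.74 and 0.94 from wild type levels of 4.51 and 4.12. Tmcc2, a transmembrane protein with coiled coils, rose by 2.39 and 1.43, and its wild type arrays spread from 4.46 to 6.30 at the first.

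Emb, the membrane glycoprotein embigin, read 8.95, 9.05 and 8.84 in wild type and 10.39, 10.81 and 10.48 in transgenic arrays at its brightest probe set, a rise of 1.61 ± 0.12. Its other probe sets rose by 1.43 and 0.55, the last at a level of 5.01 in wild type cells. Rsad2, the interferon-induced antiviral protein viperin, rose by 1.81, 1.30 and 1.06 at 3 probe sets. Both were also called higher in stimulated transgenic cells, Emb at 2 of 3 probe sets and Rsad2 at all 3.

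Over the 101 concordant rises, the median difference was 0.73 with a range of 0.31 to 2.82, and 30 were at least 2-fold. No array overlapped between the genotypes at any probe set in 96 of them. The genes were chosen by calls on these same arrays, which favours such a count. Over all probe sets 24.3% did not overlap. Of the 101 genes, 8 stood in the lists of markers of other blood and stromal cells: C1qb, Csf1r, Fcgr1, Hdc, Mmp9, Slc40a1, Spic and Vcam1. None of the 54 concordant falls did. The lists held 131 of the 18193 measured genes. They are short and lack, for one, the macrophage receptor Adgre4, so the 8 are not every such gene among the rises. The part of other cells in the rises was not tested.

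The 54 concordant falls were led by Mndal. Their number was 15 in the 6 arrays alone, and leaving out transgenic replicate 1, 2 or 3 gave 19, 33 or 18. Leaving out wild type replicate 1, 2 or 3 gave 25, 24 or 108. With array medians subtracted the concordant genes split into 82 higher and 76 lower. Mndal, a member of the interferon-inducible IFI200 family of DNA sensors, read 12.22, 11.96 and 11.81 in wild type arrays and 3.67, 3.32 and 3.74 in transgenic arrays, a fall by 8.42 ± 0.14 (adjusted p = 3.61e-12). Its second probe set fell by 6.86 ± 0.19, from 12.79 to 5.94 in the means. The transgenic values of the first were close to the lowest level of the array, where probe set means began at 3.05. Plcxd2 fell by 2.77 ± 0.20 and 1.23 ± 0.12 at its 2 probe sets, with no overlap between the genotypes.

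The other leading falls lay between 0.84 and 1.03 in size, as medians over probe sets. Cnn3, the actin-binding acidic calponin, was read by 6 probe sets and fell at each of them, by 0.62 to 1.17. At the brightest, wild type arrays read 11.74, 11.50 and 11.53 and transgenic arrays 10.77, 10.62 and 10.81. Alcam, the adhesion molecule CD166, fell at 5 probe sets by 0.46 to 1.28. Stk38l, an NDR family kinase, fell at 3 probe sets by 1.56, 1.02 and 0.78, and in the first the transgenic arrays were 7.07, 7.02 and 7.03 against 8.87, 8.61 and 8.32. St3gal5, the sialyltransferase that makes ganglioside GM3, fell by 1.22 and 0.84. Gprc5b, an orphan receptor of the G protein-coupled class, fell by 0.94 and 0.83, and Slco4a1, an organic anion transporter, by 1.31 and 0.49. Spata13 fell at 3 probe sets by 1.10, 0.84 and 0.50.

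Ssbp2, which binds single-stranded DNA, shows that agreement in direction is not agreement in size. Its 4 probe sets all fell, with differences of -2.79 ± 0.10 at one and -1.11, -0.70 and -0.44 at the others. At the first the wild type arrays read 6.43, 6.72 and 6.81 and the transgenic arrays 3.93, 3.89 and 3.77. Over the 54 concordant falls the median difference was -0.55, from -7.64 to -0.35, and 4 were at least 2-fold. In 52 of them no array overlapped at any probe set, a count that the choice by calls again favours, beside 24.3% over all probe sets. The calls of the weakest probe set of Alcam, Spata13 and Ssbp2 were lost in the fit to 6 arrays alone.

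**Figure D1:**
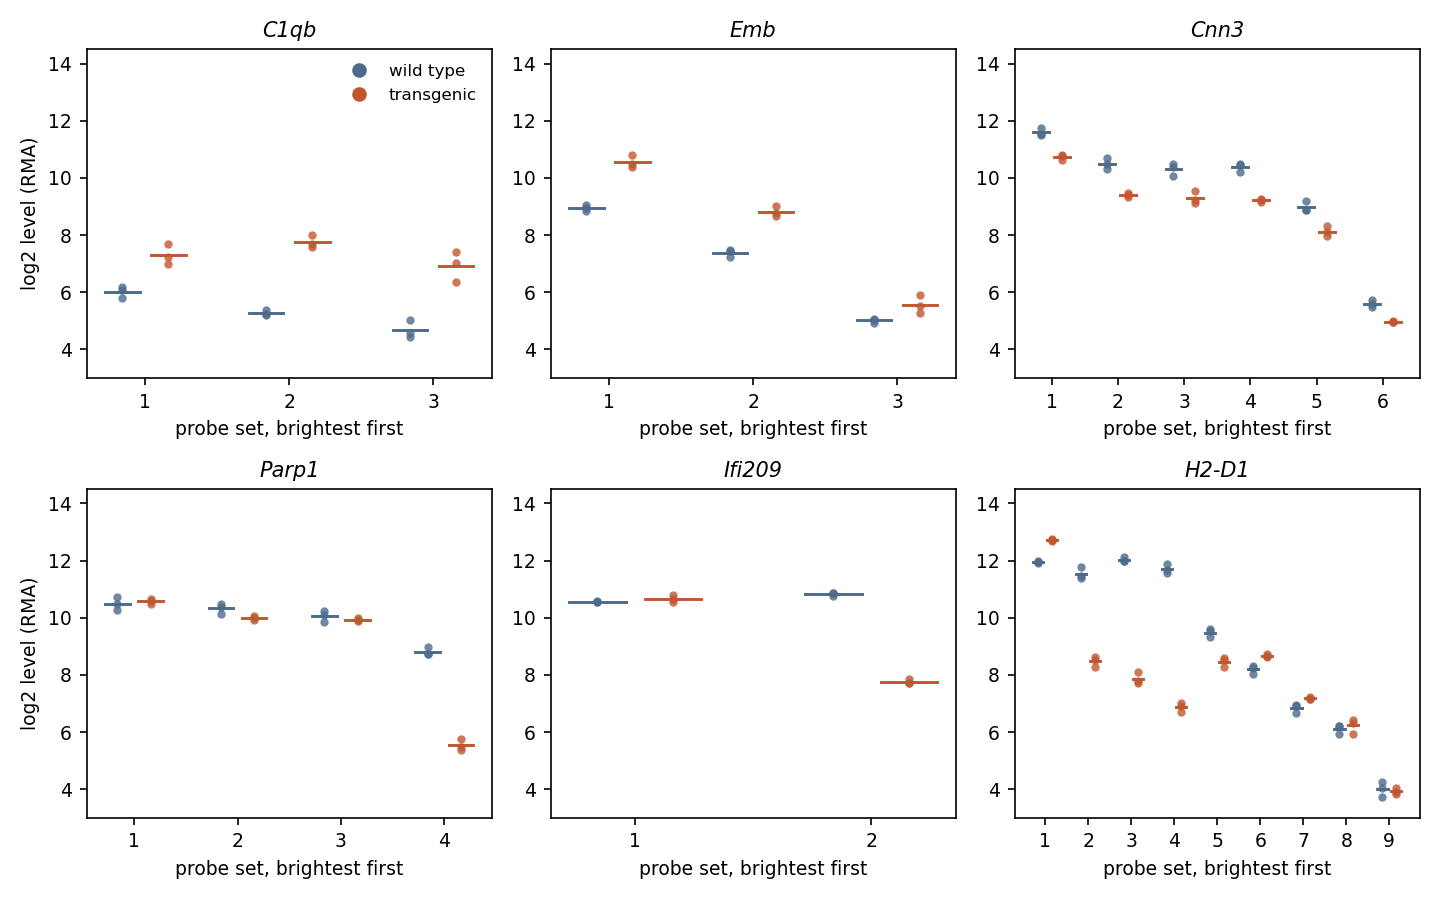
Log2 level of every probe set of 6 genes in each unstimulated array, 3 wild type and 3 transgenic, with bars at the means and probe sets ordered from bright to dim within a gene. All probe sets of C1qb and Emb lie higher and all 6 of Cnn3 lower in transgenic cells, whereas 1 of 4 probe sets of Parp1 and 1 of 2 of Ifi209 separate, and those of H2-D1 move both ways.

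In 488 genes the single called probe set was also the one that stood apart from the rest of its gene, 278 lower and 210 higher. The deepest of these falls left the other probe sets of the gene nearly level. Parp1, the poly(ADP-ribose) polymerase that marks DNA breaks, read 8.74, 8.73 and 8.98 in wild type and 5.39, 5.75 and 5.48 in transgenic arrays at 1 probe set, a difference of -3.28 ± 0.11 (adjusted p = 1.22e-09). At its brightest probe set the same arrays read 10.28, 10.71 and 10.47 against 10.48, 10.67 and 10.57, a difference of 0.09 ± 0.11. The genotypes separated completely at the first and overlapped at the second.

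Ifi209, a neighbour of Mndal in the IFI200 family, behaved alike, with a difference of -3.07 ± 0.10, from 10.86, 10.85 and 10.76 to 7.70, 7.73 and 7.84. Its other probe set read 10.55 to 10.58 in wild type and 10.55 to 10.78 in transgenic arrays. Ifi213 of the same family fell by 3.58 ± 0.20 at one probe set, while its other was dim. Slc15a2, the oligopeptide transporter PEPT2, had the largest fall of the group, by 4.89 ± 0.27, from 10.31, 9.77 and 10.72 to 5.44, 5.24 and 5.46. Its other 2 probe sets differed by -0.11 and 0.13 at levels of 5.33 to 6.17, both under the median of all probe sets, 6.02, in their means.

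H2-Aa, the alpha chain of an MHC class II molecule, fell by 3.28 ± 0.13 at a probe set that read 10.17, 10.27 and 10.43 in wild type and 7.05, 7.12 and 6.87 in transgenic arrays. At its brightest probe set the values were 13.82, 14.01 and 13.89 against 13.68, 13.74 and 13.66, a difference of -0.21 ± 0.08 that was not called. The name of the first ends in _x_at, the array maker's mark for probes shared with other transcripts, so which transcript it read is uncertain. Arhgap26 fell by 3.13 ± 0.13 at 1 of 4 probe sets and Fam126b by 2.02 ± 0.15 at 1 of 4. Mdm1 fell by 2.63 ± 0.12 at 1 of 2, from 8.08, 8.18 and 7.90 to 5.20, 5.56 and 5.52, and the other read 5.32 to 5.47 in all 6 arrays. Probe sets marked as shared (_s_at or _x_at) made up 10.1% of the 278 lower ones and 4.76% of the 210 higher ones, against 14.1% of all probe sets of genes with 2 or more.

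Rises at 1 probe set were smaller at their top than these falls. Axl, a receptor kinase that macrophages use to take up dying cells, read 5.25, 5.11 and 4.81 in wild type and 6.79, 6.77 and 6.98 in transgenic arrays, a rise of 1.79 ± 0.10, while its other probe set stayed between 3.28 and 3.35. Anxa1, the phospholipid-binding annexin A1, rose by 1.66 ± 0.15 beside a probe set at 4.86 to 5.01. Hpgd, the enzyme that inactivates prostaglandins, rose by 1.74 ± 0.22, and Hsd17b11, a steroid dehydrogenase, by 1.66 ± 0.20. In Axl and Anxa1 the probe set that was not called was the dim one, so it gives little on whether the gene's reading was split.

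Tug1, a long noncoding RNA, and Zc3h4, a zinc finger protein, led the list but rested on few arrays. At Tug1 the wild type arrays read 6.33, 8.84 and 8.84 and the transgenic arrays 10.09, 9.61 and 9.89, a difference of 1.86 ± 0.50 that fell to 1.02 without wild type replicate 1. At Zc3h4 the difference was 1.86 ± 0.49, and 1.51 without that array, where it was no longer called (adjusted p = 0.11). The Zc3h4 call was also lost without wild type replicate 2 (adjusted p = 0.0552), transgenic replicate 1 (0.107) or transgenic replicate 3 (0.124). Tug1 stayed called without wild type replicate 1 (adjusted p = 0.00436) and lost its call without any one transgenic array (adjusted p from 0.0621 to 0.106).

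In 63 genes some probe sets rose and others fell, a count that was 12 in the 6 arrays alone and 30 without wild type replicate 1. H2-D1, a classical MHC class I gene, was read by 9 probe sets, of which 3 rose and 4 fell. Its brightest read 11.91, 11.96 and 11.98 in wild type and 12.72, 12.77 and 12.67 in transgenic arrays, a rise of 0.77 ± 0.07. Another read 11.88, 11.55 and 11.66 against 6.91, 7.02 and 6.71, a fall by 4.82 ± 0.12. Each of the 7 separated the genotypes without overlap. Of the 7, 6 carry the _x_at mark, and class I genes are near-identical copies, so the transcript behind each is uncertain.

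Ms4a6c, a membrane protein of the CD20 family, rose by 1.63 ± 0.28 at one probe set and differed by -0.87 ± 0.07 at the other, brighter one. Myef2, a repressor of myelin genes, rose by 0.87 and fell by 1.63. Mysm1, a histone H2A deubiquitinase, rose by 1.50 and fell by 0.72. The phosphatase gene Ptp4a2 rose by 1.49 and fell by 0.60. Its rise was 0.82 without wild type replicate 1, which read 9.73 beside 11.90 and 11.60, and was still called (adjusted p = 0.00386). The rise lost its call without any one transgenic array (adjusted p from 0.0623 to 0.115) and in the 6 arrays alone (0.145). Among the 11 probe sets of Ighm, the heavy chain of IgM, 2 rose and 3 fell, and the brightest differed by 0.12 without a call.

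The stimulated arrays gave a second genotype difference at the same probe sets. Their values do not enter the unstimulated difference, but they do enter the spread behind its p-values, and the labels do not say if those cultures came from the same mice. In them, 839 probe sets (1.86%) were called between the genotypes. Of the 4256 probe sets called before culture, 3275 had the same sign, 416 were called in the same direction and 13 in the opposite one. The difference between the 2 genotype effects passed its own test at 584 of the 4256.

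Of 41 single probe sets that fell at least 2-fold apart from their gene, 19 (46.3%) were called lower again in stimulated cells, and 37 had the same sign. Of the 46 rises of that size, 2 (4.35%) were called higher again, and 42 had the same sign. The difference between these shares was not tested. Where the gene's other probe set was above the median level, 16 of 32 falls (50.0%) and 1 of 28 rises (3.57%) were called again. Parp1 differed by -2.30, Ifi209 by -2.42, Slc15a2 by -2.88 and H2-Aa by -4.05 in stimulated cells. Mdm1 was the exception among the 8 deepest, at 0.21.

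Among genes with all probe sets called, 4 of 101 rises and 4 of 54 falls were called at every probe set again. The median stimulated difference was 0.17 for the rises and -0.17 for the falls, against 0.73 and -0.55 before culture. Slc40a1 stood at 0.24 and 0.21, the 3 C1qb probe sets at -0.04 to 0.09 and the 6 Cnn3 probe sets at -0.14 to -0.01. Mndal stayed low, by -7.63 and -6.66. Within the unstimulated arrays the fit to 6 arrays alone kept 62% of calls in concordant genes, 30.4% of calls at a single probe set and 43.2% of all calls. Leaving out wild type replicate 1 kept 80.6%, 51.3% and 62.3%. The classes were defined by calls on these same arrays, which favours the concordant genes, so these shares are a description.

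**Figure D2:**
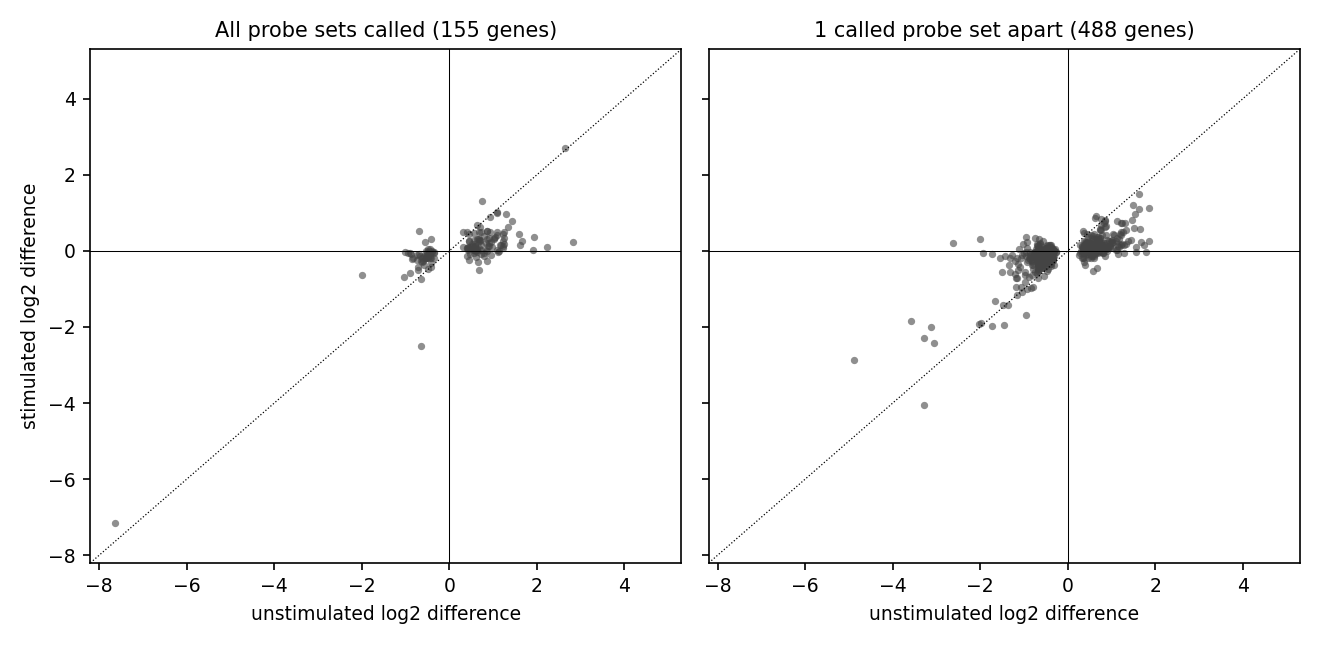
Log2 difference between transgenic and wild type cells before culture (x) and after 2 days of stimulation (y), with 1 point per gene: the median over probe sets for the 155 genes with all probe sets called, and the called probe set for the 488 genes where it stood apart. The dotted line marks equal differences. Mndal, at -7.64 before culture, lies near the line, and the median after stimulation is 0.17 for the 101 rises and -0.17 for the 54 falls with all probe sets called.

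Brightness was taken as the mean over the 6 unstimulated arrays, and probe sets were split by it into 4 classes of like size. This mean takes in both genotypes, so a large change can place a probe set in a higher class through 1 genotype alone. A probe set's brightness also depends on its probes, so a bright probe set is not shown to read a more abundant transcript. In the brightest class, from 7.61 to 14.6, 16.9% of probe sets were called, in the third 12.8%, in the second 6.09% and in the dimmest, from 3.05 to 4.79, 1.96%. The median SE was 0.0904 in the dimmest and 0.103 in the brightest class. The median size over all probe sets was 0.0767 in the dimmest and 0.177 in the brightest class. Without transgenic replicate 3 the brightest class had 8.30% called and the dimmest 0.817%, and without wild type replicate 3 it was 26.6% and 5.00%.

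With all arrays in the fit, the leading direction differed between the classes. In the brightest class 742 called probe sets were higher and 1162 lower, so 39.0% were higher, and in the second class 399 were higher and 287 lower, or 58.2%. At 2-fold or more the balance ran the other way among bright probe sets, with 137 higher and 65 lower. The dimmest class held 4 rises and 6 falls of that size. Direction by class was not recomputed without single arrays. Over all classes, 53.7% of calls were higher without wild type replicate 1 and 53% without transgenic replicate 3, in place of 47.3%. With array medians subtracted it was 36.3%.

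The largest bright rises were neutrophil genes and Ctse. S100a8 and S100a9, the subunits of calprotectin that fill the cytosol of neutrophils, rose by 4.62 ± 0.18 and 4.89 ± 0.19. S100a9 read 6.42, 7.05 and 6.84 in wild type and 11.36, 11.99 and 11.63 in transgenic arrays. Only its transgenic levels lay in the range of the brightest class, which began at 7.61. Ngp, a neutrophil granule protein, rose by 4.03 ± 0.17. Ctse, the protease cathepsin E, read 8.54, 8.48 and 8.69 against 12.41, 12.29 and 12.54, a rise of 3.84 ± 0.09, and its other probe set rose by 1.42 with overlapping arrays. Lcn2, the iron-scavenging lipocalin of neutrophil granules, lay 1 class lower and rose by 3.60 ± 0.25 at its only probe set.

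Bright falls were led by Mndal, Slc15a2 and H2-D1, with the values above. At the probe set of each gene's largest fall, the transgenic arrays lay under 7.61, the lower end of the brightest class. Of genes with 1 probe set, Tlr1, a receptor for bacterial lipopeptides, read 9.66, 9.37 and 9.27 in wild type and 6.88, 6.84 and 6.79 in transgenic arrays, a difference of -2.60 ± 0.10. Crisp3, a cysteine-rich secretory protein, fell by 2.26 ± 0.10 and Mgst2, a glutathione transferase, by 1.41 ± 0.11. Apobec3, a cytidine deaminase that restricts retroviruses, fell by 1.41 ± 0.39, with 1 transgenic array at 9.17 beside 7.67 and 7.60, and lost its call when any of 4 other arrays was left out.

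In the dimmest class the called rises included Hnrnpll, a splicing regulator of lymphocytes, at 1.12 ± 0.18, Bace1, a beta-secretase, at 1.06 ± 0.23, and Cd8a, a T cell co-receptor chain with 3 of 5 probe sets called, at 0.97 ± 0.11. Dim probe sets of Trp53bp1, a DNA repair adaptor, and Camk2d, a calcium/calmodulin-dependent kinase, differed by -1.90 ± 0.10 and -1.54 ± 0.14, and each gene had 3 called probe sets in all, of 6 and 7. The dim probe set of Trp53bp1 read 5.71, 5.59 and 5.51 against 3.60, 3.87 and 3.64. Afp, a fetal serum protein, fell by 1.31 ± 0.31 from 5.83, 4.65 and 4.42, and by 0.88 without wild type replicate 1. Cep290, a ciliary protein, fell by 1.14 ± 0.27 and was not called without that array (adjusted p = 0.0527), wild type replicate 2 (0.0648), transgenic replicate 1 (0.0728) or transgenic replicate 3 (0.0784). Of the 339 rises of 2-fold or more, 117 had a wild type mean under the median of all probe sets, and of the 179 falls, 81 had a transgenic mean under it. A fold is less certain on that side, since a level near the array's floor can hide a lower one.

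**Figure D3:**
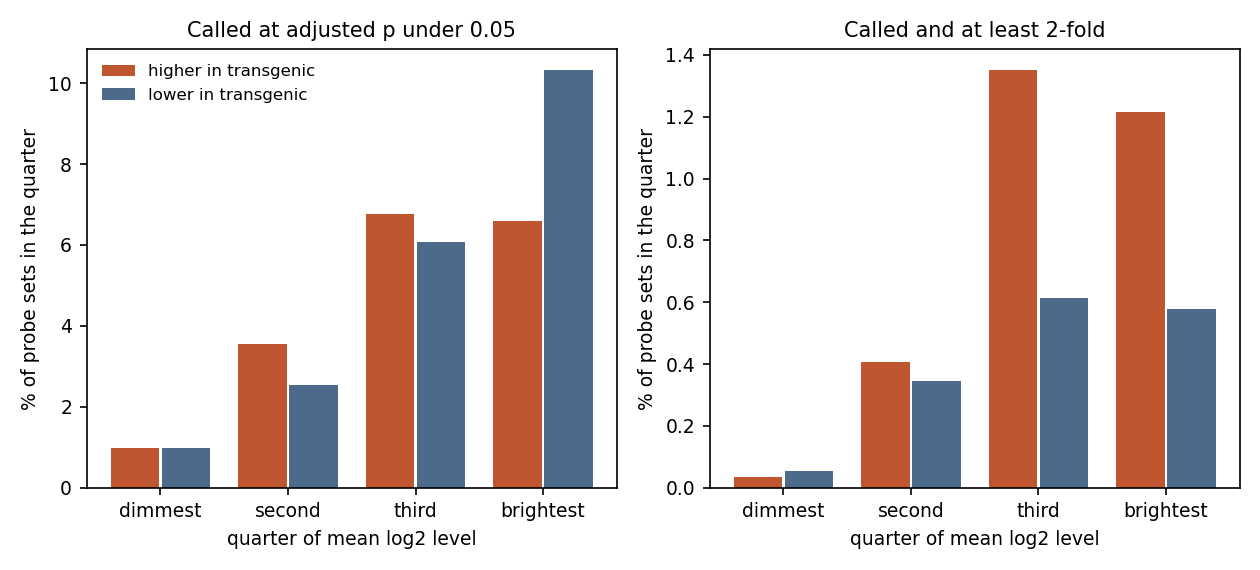
Share of probe sets called higher (orange) or lower (blue) in transgenic cells in each of 4 classes of mean level, for all calls on the left and for calls of at least 2-fold on the right. The share called grows from 1.96% in the dimmest to 16.9% in the brightest class, where falls outnumber rises, while rises outnumber falls at 2-fold or more.

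Neutrophil, macrophage and erythroid markers held most of the rises among genes of other cells. Of 131 marker genes of 9 such cell types, 71 were called higher and 2 lower (Tfrc and Tbx21) at their brightest probe sets, beside 5.42% higher and 4.95% lower over all genes. Neutrophil genes rose in 16 of 18 cases with a median difference of 2.23, beside 0.01 over all genes. Their summed linear level ran from 1964 to 2088 in wild type and from 12910 to 18590 in transgenic arrays. The granule genes Camp (3.36), Ltf (3.23), Mpo (2.65), Prtn3 (2.62) and Elane (2.06) were among them, and Cxcr2 (0.29) and Wfdc21 (0.10) were not called.

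Macrophage genes rose in 23 of 27 cases, with a median of 1.18 and summed levels of 10790 to 14330 against 22120 to 30140. C1qa rose by 2.58, Cd14, the co-receptor for LPS, by 1.91, Mrc1, the mannose receptor, by 1.46 and Csf1r, the receptor of the macrophage growth factor, by 1.24 with all 3 of its probe sets called. Chil3, a chitinase-like protein, rose by 3.16. Marco (0.15) and Timd4 (0.20) were not called.

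Erythroid genes rose in 14 of 19 cases, with a median of 0.85 and summed levels of 2505 to 2835 against 4520 to 6382. Slc4a1, the band 3 anion exchanger, rose by 2.53, Rhag, a Rhesus complex protein, by 2.47, Alas2, the first enzyme of heme synthesis in red cells, by 2.18 and Klf1, the erythroid master regulator, by 1.67. Tfrc, the transferrin receptor, fell by 0.44. The 14 became 11 without wild type replicate 1 and 10 without transgenic replicate 3.

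NK cell genes rose in 8 of 13 cases with a median of 0.46, among them Gzma (1.45), Klra8 (1.30) and Klrd1 (1.13), and genes of mast cells, basophils and eosinophils in 5 of 11, led by the eosinophil granule genes Prg2 (2.14) and Epx (1.47). T cell genes were called in 2 of 14 cases, Cd28 and Cd8a, while Cd3e (0.33), Cd3d (0.15) and Cd3g (-0.08) were not. Platelet, dendritic cell and stromal lists each had 1 called gene, Ppbp, Batf3 and Cxcl13, of 9, 8 and 12. In bulk samples more cells of a type and more of its RNA per cell cannot be told apart.

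B cell genes read near level beside them. Of 24 genes of B cell identity and receptor, each in the brightest class, 2 were called higher (Cd81 at 0.36 and Cr2 at 0.29) and 1 lower (Blk at -0.27), with a median of -0.04. Ms4a1, encoding CD20, read 12.89 in wild type and 12.90 in transgenic cells, Cd79a 12.83 and 12.94 and Cd79b 12.88 and 12.84 in the means. The summed level of the list was 120700 to 128600 in wild type and 124700 to 126100 in transgenic arrays. These markers were thus present in both genotypes.

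Marginal zone genes were called higher in 10 of 15 cases and lower in none, with a median of 0.47 and summed levels of 19090 to 19330 against 25100 to 26420. Over all genes 5.42% were called higher. Of the 15 genes, 14 lay in the brightest class, where 16.9% of probe sets were called. The part of other cells in these rises was not tested. Cd9, a tetraspanin of marginal zone and B-1 cells, read 7.75, 7.84 and 7.76 in wild type and 8.67, 9.20 and 8.96 in transgenic arrays, a rise of 1.16 ± 0.15. Asb2, a ubiquitin ligase subunit, rose by 1.26 and Cd1d1, which presents lipids, by 0.56 with both probe sets called. Notch2, the receptor that drives the marginal zone fate, read 0.12 higher without a call. The 10 became 6 in the fit to 6 arrays alone, 5 without transgenic replicate 1 and 6 without transgenic replicate 2.

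Follicular genes were called lower in 3 of 9 cases and higher in 1. Cxcr4, a chemokine receptor, read 11.99, 12.20 and 12.33 against 11.03, 11.27 and 10.71, a fall by 1.17 ± 0.23, Cd55, a complement inhibitor, fell by 0.57 with all 3 probe sets called, and Satb1, a chromatin organizer, by 0.49. Cxcr5 rose by 0.36, and Fcer2a, encoding CD23, differed by 0.03. B-1 genes were called higher in 7 of 11 cases with a median of 0.58, but 5 of those, such as S100a6 (1.68), Itgam (1.13), Anxa2 (0.97), Lgals1 (0.85) and Cd300a (0.84), are also expressed by myeloid cells, and Cd5 (0.15) was not called.

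Plasma cell genes rose in 12 of 20 cases, with a median of 0.52 and summed levels of 24640 to 26530 against 33930 to 35550. Igha, the heavy chain of IgA, rose by 1.33 with all 3 probe sets called, Derl3, an endoplasmic reticulum degradation factor, by 0.81, Xbp1, a transcription factor of secretory cells, by 0.75 and Jchain, the joining chain of polymeric antibodies, by 0.51. Prdm1 (0.27) and Irf4 (-0.09), regulators of the plasma cell fate, were not called. The 12 became 7 without transgenic replicate 3. In the unfolded protein response list, 9 of 24 genes were called higher and 2 lower, with Pdia4 (0.70) and Edem1 (0.65) on one side and Ddit3 (-0.38) and Eif2ak3 (-0.35) on the other. Over all genes 5.42% were called higher and 4.95% lower. Of the 24 genes, 23 lay in the brightest class, and 5 were called in the 6 arrays alone. Creld2 and Edem1 stand in both this list and the plasma cell list.

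Splicing genes were called lower in 6 of 34 cases and higher in none, with a median of -0.16: Rbm25 (-0.68), Srsf10 (-0.58), Prpf4b (-0.52), Prpf38b (-0.44), Clk4 (-0.37) and Hnrnpu (-0.32). DNA repair genes were called lower in 6 of 22, among them Rif1 (-0.82), Trp53bp1 (-0.74 at its brightest probe set) and Msh6 (-0.58), and 1 was called higher, H2ax (0.32). Rbm25 was called at 1 of 6 probe sets and Trp53bp1 at 3 of 6. In the 6 arrays alone 3 splicing and 2 repair genes were called. Over all genes 4.95% were called lower. All 34 splicing genes and 12 of the 22 repair genes lay in the brightest class, which held 1162 lower and 742 higher calls. Ribosomal proteins and oxidative phosphorylation, with all genes in the brightest class, gave 1 call in 21 genes and none in 29, with medians of 0.01 and 0.05. The lists were not matched in level, within that class or outside it. The ribosomal list includes Mrpl23, a mitochondrial ribosomal protein matched to the listed name Rpl23.

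Among MHC genes, 3 of 13 of class I presentation were called lower and 2 higher at their brightest probe sets, and 2 of 12 of class II were called lower, H2-Eb2 (-0.86) and H2-DMa (-0.44). H2-K1, a class I gene, read 12.94, 12.92 and 12.98 in wild type and 10.77, 11.04 and 10.68 in transgenic arrays at its brightest probe set, and 11.72 to 11.91 against 11.66 to 11.90 at another, both of the shared kind. In the IFI200 cluster, 8 genes were measured, 2 fell (Mndal and Ifi213) and 1 rose: Ifi202b, at 6.29, 6.44 and 6.03 against 8.98, 9.35 and 8.85, by 2.81 ± 0.13. Calcium signalling genes were called in 2 of 25 cases, Slc8a1 (0.41) and Orai2 (-0.46). Immediate early genes were called higher in 5 of 23, led by Fosl2 (0.96) and Ier3 (0.84), and Fos (0.10) was not called. Mitosis genes were called higher in 2 of 21, Ube2c (0.78) and Aurkb (0.45). Over all genes 5.42% were called higher and 4.95% lower, and in the brightest class 16.9% of probe sets were called. Beside these shares, the small counts of the class II, calcium and mitosis lists are not read as results about those genes.

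**Figure D4:**
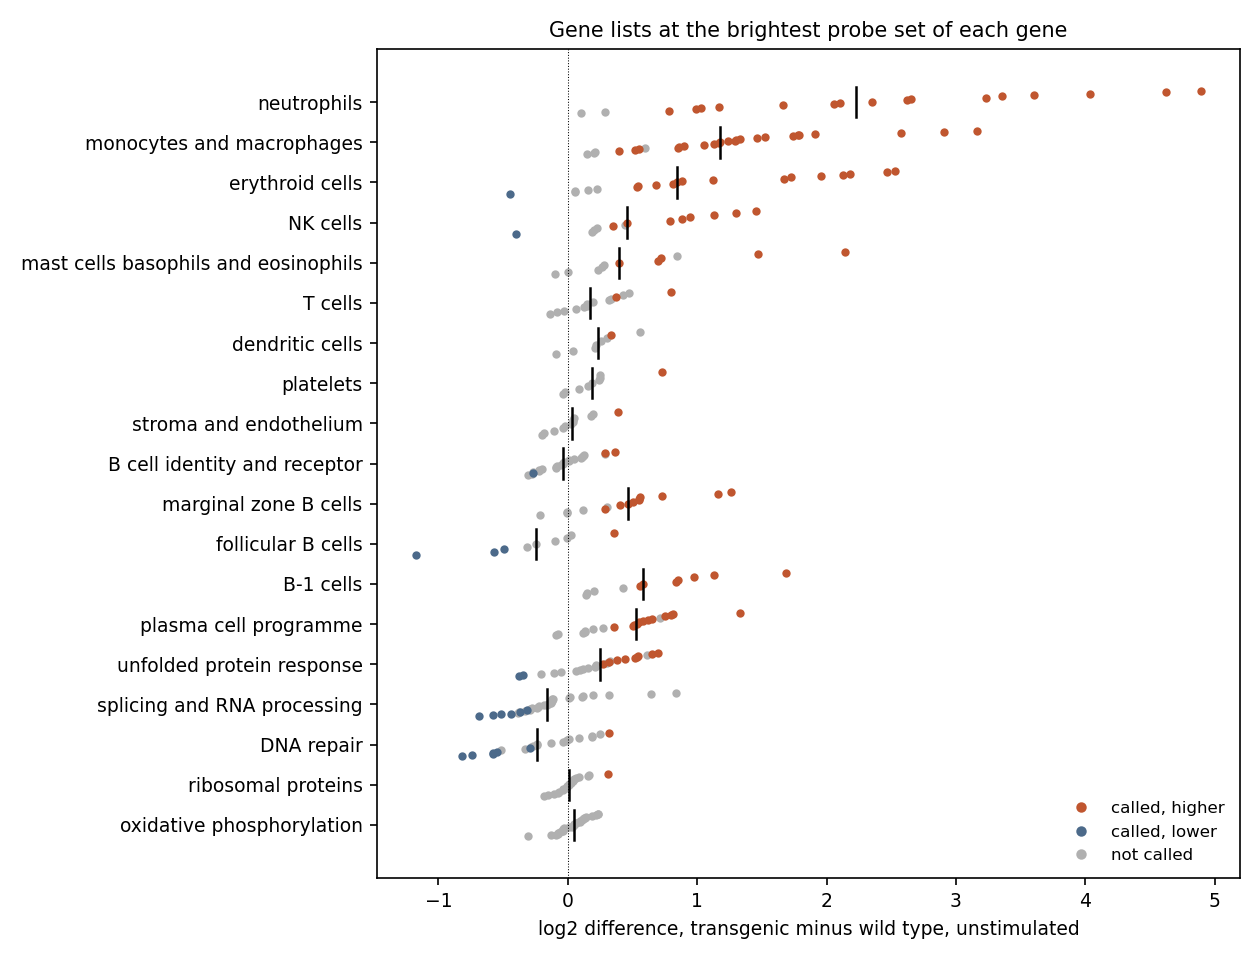
Log2 difference between transgenic and wild type unstimulated cells for the genes of 19 lists, 1 point per gene at its brightest probe set, with the list median as a bar. Neutrophil, macrophage and erythroid genes lie to the right with medians of 2.23, 1.18 and 0.85, and genes of B cell identity, ribosomal proteins and oxidative phosphorylation lie at 0.

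Of 36 genes with a probe set that fell by 1.5 or more, 9 had another of the 36 within 20 measured genes in the order of the RefSeq annotation of GRCm38.p6. Mndal, Ifi209 and Ifi213 lay 1 to 4 genes apart, H2-K1 and H2-Aa 16 apart, Col6a4 and Cpne4 9 apart and Trp53bp1 and Zfp106 17 apart. In 194 windows of 100 genes, 329 of 34878 probe sets (0.943%) were called in the same direction before and after culture, with a median of 1 per window, none in 67 windows and 5 or more in 14. The window with most such probe sets, with H2-D1, Lst1 and Ier3, held 13 of 161, several of them of H2-D1. They came from 6 genes, so by genes this window was not the highest. The window with Mndal, Ifi202b and Parp1 held 9 of 180, from 8 genes. The window with App and Nsun3 held 9 of 209, from 5 genes. The window with Myef2, Snrnp200 and Il1b, which also holds Kcnip3, held 9 of 182, from 8 genes. The windows on either side of the last held 8 of 207 and 6 of 204. Windows and limits were chosen after values had been seen, and this is a description.

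Snrnp200, a helicase of the spliceosome, lies in that last window and was chosen after its values were seen. One probe set read 7.82, 7.41 and 7.46 in wild type and 5.69, 5.66 and 5.37 in transgenic arrays, a difference of -1.99 ± 0.12, and differed by -1.90 after culture. The other read 10.26 to 10.52 against 10.39 to 10.46, a difference of 0.05.

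**Figure D5:**
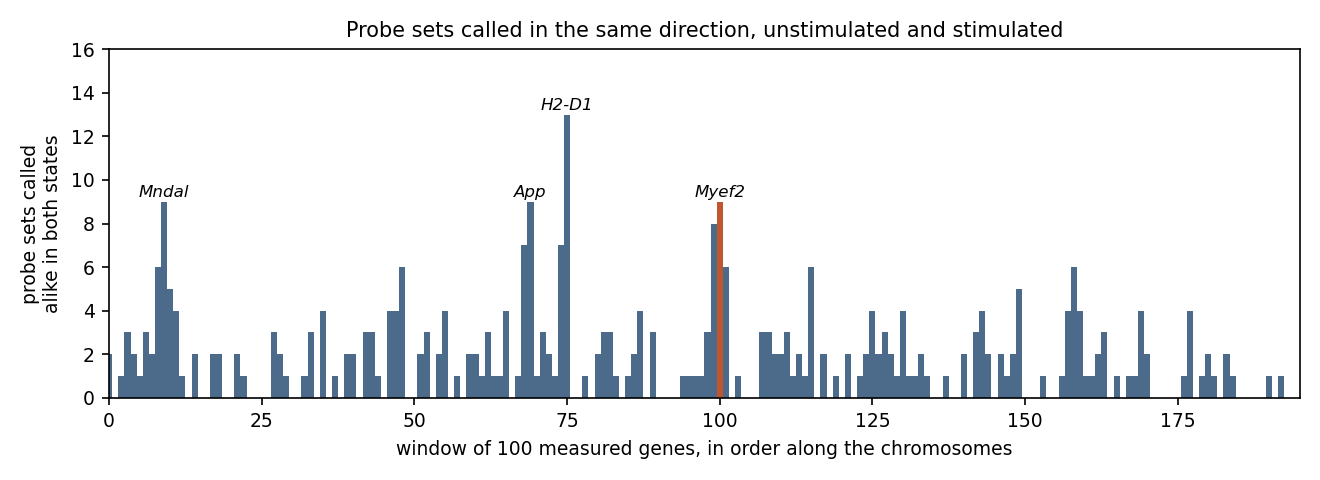
Number of probe sets called in the same direction before and after culture in each of 194 windows of 100 measured genes, in order along the chromosomes, with the window that holds Kcnip3 in orange and 4 windows labelled by a gene in them. Most windows hold 0 or 1, and the windows of H2-D1 (13), Mndal (9), App (9) and Myef2 (9) stand highest. In these windows the probe sets came from 6, 8, 5 and 8 genes.

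Since DREAM binds DNA, promoters of concordant genes were searched on both strands for the word GTCAAAG or its variant GTCAAGG, and for the word GTCAGAG or its variant GTCAGGG, which share the core letters of a downstream regulatory element. The RefSeq windows run from 250 bases before to 50 after a gene's start. A word was found in 6 of 40 concordant falls with a promoter in the table (15.0%), in 16 of 80 concordant rises (20.0%) and in 2812 of 14452 measured genes (19.5%). Of all promoters of that length in the table, 16.9% held one. The promoters of Stk38l, a fall, and Tmcc2, a rise, are shown with the word in capitals, as the largest concordant change of each direction whose promoter holds one. Stk38l lies at chr6:146724680-146724979 on the plus strand and Tmcc2 at chr1:132367899-132368198 on the minus strand of GRCm38.p6.
Stk38l: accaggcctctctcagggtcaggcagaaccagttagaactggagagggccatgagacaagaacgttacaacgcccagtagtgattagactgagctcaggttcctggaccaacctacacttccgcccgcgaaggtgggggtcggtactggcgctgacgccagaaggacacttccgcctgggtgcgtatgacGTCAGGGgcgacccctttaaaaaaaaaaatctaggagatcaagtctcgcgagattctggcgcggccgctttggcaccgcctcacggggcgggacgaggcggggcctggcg
Tmcc2: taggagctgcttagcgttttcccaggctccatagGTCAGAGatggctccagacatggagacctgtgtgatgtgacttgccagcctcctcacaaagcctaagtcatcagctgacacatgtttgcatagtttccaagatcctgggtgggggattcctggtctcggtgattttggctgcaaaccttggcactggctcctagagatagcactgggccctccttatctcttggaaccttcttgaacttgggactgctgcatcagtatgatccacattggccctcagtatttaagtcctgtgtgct
A match is a run of letters and not a binding site, and these arrays do not measure binding.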

How the data were processed

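B cell RNA was hybridised to Affymetrix Mouse Genome 430 2.0 arrays, 1 biotin-labelled sample per array and 3 per group. The authors deposited 1 log2 value per probe set and array; the submitters' processing notes name RMA and affy, without versions. RMA sets arrays that are processed together on one distribution, so a shift shared by most transcripts among them is not seen. Array medians were 5.97 to 6.05 before culture and 5.36 to 5.41 after it, so the 2 states do not share one distribution. Of 45101 probe sets, 64 controls were left out and 45037 tested; 34945 had 1 gene symbol in the platform annotation, 932 several and 9160 none.

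limma 3.58.1 in R 4.3.3 was fitted with 1 coefficient per group over 12 arrays, which share one estimate of the spread, and p-values were adjusted by Benjamini-Hochberg over all 45037 probe sets, with 0.05 as the threshold. Each probe set of a gene with 2 or more was also set against the mean of the gene's others, over 21067 differences. A gene in a list stands by its brightest probe set. Array number limits the precision.

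Named were Kcnip3; the 10 largest rises and falls among genes with all probe sets called and no overlap; the 8 largest falls and 6 largest rises at 1 probe set apart from its gene; the 5 widest genes called both ways; the 4 largest each way with a single probe set, and in the brightest and dimmest class; and up to 3 called members per list. Predicted genes were skipped. Other genes named, among them further list members, Snrnp200, H2-K1 and the genes of windows, were chosen after their values were seen. Members and lists were chosen with earlier results of these data known. Deviations of same-numbered arrays of the 2 genotypes correlated at 0.0778, 0.0701 and 0.297 before culture, against at most 0.112 between other numbers. After culture they correlated at 0.33, 0.101 and 0.178, against at most 0.0574. The labels do not say that a number marks a pair, and the main fit took none. Whether arrays of one number share a factor was not tested. A fit with the replicate number as a block called 4966 probe sets, against 4256. Alternatives were other sample sets, scalings, thresholds and probe set filters. Those with Eif2s3y were chosen after seeing the data.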

Additional observations from a re-analysis of the deposited data

Results flagged for a closer look

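In 54 of the 121 named genes the genotype difference after stimulation differed from the one before culture, by the limma test of the difference between the 2 differences. Each value is the log2 difference in stimulated cells minus that in unstimulated cells, at the probe set of the gene with the smallest adjusted p. The difference was smaller in size after stimulation in 52 genes and larger in 2, Ctse (1.28), which was higher in both states, and Gbp2 (-1.82), which was lower in both. The genes were named mostly for large differences before culture, a choice that favours a smaller one afterwards, so the 52 is a description.

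Among genes higher before culture, those of neutrophils, macrophages, red cells and other blood cells changed by S100a9 (-3.73), Ngp (-3.72), S100a8 (-2.88), Slc40a1 (-2.67), Lcn2 (-2.49), C1qa (-2.49), Rhag (-2.48), Slc4a1 (-2.44), C1qb (-2.40), Alas2 (-2.21), Prg2 (-2.18), Axl (-1.83), Hp (-1.70), Spic (-1.69), Cxcl9 (-1.58), Hpgd (-1.58), Adgre4 (-1.53), C1qc (-1.50), Fgl2 (-1.47), Epx (-1.44), Klra8 (-1.27), Cd8a (-1.17), Tlr13 (-1.12), Anxa1 (-1.09), Cd28 (-0.89), Fcgr4 (-0.64). The other rises that shrank were Tmcc2 (-2.37), S100a6 (-2.27), Hsd17b11 (-1.43), Igha (-0.96), Ube2c (-0.75), Asb2 (-0.67).

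Genes lower before culture whose difference was smaller in size afterwards were Ms4a6c (0.62), Ifi209 (0.65), Alcam (0.72), Tlr1 (0.80), Gprc5b (0.87), Parp1 (0.98), Spata13 (1.01), Camk2d (1.04), Trp53bp1 (1.08), Ssbp2 (1.13), Arhgap26 (1.14), Cnn3 (1.15), Plcxd2 (1.21), Slco4a1 (1.26), Stk38l (1.37), Ifi213 (1.74), Cxcr4 (1.82), Slc15a2 (2.01), Crisp3 (2.13), Mdm1 (2.84). The cause was not tested.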

How the results depend on the processing

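The count of 4256 called probe sets was 1908 in the 6 unstimulated arrays alone, 1716 at an adjusted p under 0.01 and 518 at 2-fold or more, and ran from 2174 to 7518 without 1 array. Genes with all probe sets called, 155, were 58, 55 at that p, 90 in arrays with Eif2s3y over 5, and 82 to 235 without 1 array. Genes with 1 probe set apart, 943, were 223, 255, 361 and 344 to 1983 under the same changes, and 518 without probe sets under the median level. The share called was 7.97% in the brightest and 0.497% in the dimmest class in 6 arrays alone, and 8.30% to 26.6% and 0.817% to 5.00% without 1 array. Kcnip3 ran from 0.15 to 0.39 at the brighter probe set and from -0.012 (without wild type replicate 1) to 0.21 at the other. Marginal zone calls were 6 in 6 arrays alone and 5 to 9 without 1 array, and plasma cell calls 7 to 13. With the replicate block 4966 probe sets were called and 97 genes in both directions, against 63. Replicate 3 of every group shares the low Eif2s3y level, and the labels do not say that a number marks a shared animal or day. Array medians, quantile scaling and an intensity trend kept the first 3 counts within 1.5 times. The cause of each shift was not tested.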
